A study of Drosophila melanogaster with 2 samples.

Results

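One-strand promoters of simple-TSS genes are promoters whose surroundings hold transcription start sites (TSSs) of protein-coding genes on 1 strand only, at genes that start from 1 place or nearly so. They were taken from the conservative set of reproducible bbx-eGFP peaks by position alone. A peak was a member when its summit lay within 500 bp of protein-coding TSSs on 1 strand only and the nearest of these belonged to a gene with fewer than 3 TSS positions, or with TSSs spanning 1000 bp or less. Of the 4753 conservative peaks, 2067 were members, a share of 43.5% (95% Wilson interval 42.1 to 44.9). They made up 55.5% of the 3721 peaks at protein-coding promoters. The others there were 1130 peaks at divergent promoters, with TSSs on both strands, and 524 at one-strand promoters of multi-TSS genes. A further 1032 peaks had no protein-coding TSS within 500 bp.

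The peaks came from chromatin immunoprecipitation with an anti-GFP antibody in whole Drosophila melanogaster embryos of the bbx-GFP strain, aged 0 to 24 h, which carry an eGFP fusion of bbx on an inserted transgene. The 2 samples were biological replicates of this 1 group, and a control alignment entered the authors' peak calling. No embryos without the tag were used here, and whole embryos mix all tissues and stages, so a peak cannot be placed in a cell type. Peak signal is the authors' enrichment value, in pooled reads or in 1 replicate, on a scale that the sources used here do not give. Pooled and replicate signals may therefore not be on 1 scale and are not compared in size. Read totals, and so depth, are unknown, and with 1 group no test over samples was possible. Intervals cover counting error over peaks or genes, which are not replicates.

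bbx (bobby sox) encodes a protein with an HMG box, the DNA-binding fold of the SOX and TCF families. Fly promoters differ in their core elements: genes used in most cells often carry the DNA replication-related element (DRE), the site of the transcription factor Dref, whereas tissue-specific genes more often carry a TATA box or an Initiator at the TSS. The sequence CGATA, which lies inside every DRE, is recognised by the boundary protein BEAF-32, which sits at promoters of active genes.

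The DRE reads TATCGATA, and since it equals its reverse complement it holds CGATA once on each strand, so that 1 DRE counts as 2 copies of CGATA, here also called the half-DRE. The following 30-base stretches, written 5′ to 3′ along the strand of the gene, are centred on the DRE nearest to the summit at the 6 strongest members with one outside a chromosome arm that is not printed here, and show how copies cluster. Capitals mark every CGATA and its reverse complement TATCG, so a DRE appears as TATCGATA. Coordinates are those of dm6, and the sequence is RefSeq's release 6 of the genome. The stretches lie at chr2L:6967636-6967665 on the minus strand for Sumo (small ubiquitin-like modifier), chr2L:102374-102403 on the plus strand for Creld, chr3L:3814189-3814218 on the plus strand for Scsalpha1 (a subunit of succinyl-CoA synthetase), chr3L:14036930-14036959 on the plus strand for Hsp110 (a chaperone), chrX:1033215-1033244 on the plus strand for su(w[a]) (a splicing regulator) and chrX:8517284-8517313 on the plus strand for Nrg (neuroglian, a cell adhesion protein).
Sumo: taccTATCGtgTATCGATAcacacCGATAg
Creld: atgtttttattTATCGATAgtgtcggcttt
Scsalpha1: tgcagtcgctcTATCGATAcTATCGcagtg
Hsp110: caattttgcacTATCGATAaatgtcgcaaa
su(w[a]): ggcgcCGATAcTATCGATAcaagcccagtg
Nrg: tcttagataaaTATCGATAaccgtaaacca

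The 4 strongest members without a DRE, on the same terms, are shown by the 30 bases around the summit. They lie at chr3L:18673194-18673223 on the minus strand for Capr (an RNA-binding protein of the caprin family), chrX:2270778-2270807 on the minus strand for CG2924, chr3R:5779289-5779318 on the plus strand for jagn (a protein of the endoplasmic reticulum) and chr3L:20786226-20786255 on the minus strand for Pcif1. At 3 of these 4 summits single copies of CGATA stood in place of the full octamer. At jagn the 30 bases hold none, and its 2 copies lie farther out, within 100 bp of the summit.
Capr: atcgTATCGaactgctagcccaagcggcat
CG2924: tgcgcaaccatCGATAtgcCGATAcacgca
jagn: tgtgcgccagttttttggtggcagcgatgg
Pcif1: cgaatgacaaaCGATAgtgcggaaagagca

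Wider stretches, the 120 bases just before the TSS, show the arrangement at Sumo (chr2L:6967645-6967764, minus strand) and CG2924 (chrX:2270762-2270881, minus strand), the strongest printed members with and without a DRE whose stretch overlaps no annotated exon. In both, the copies lie in the TSS-proximal part.
Sumo, before the TSS: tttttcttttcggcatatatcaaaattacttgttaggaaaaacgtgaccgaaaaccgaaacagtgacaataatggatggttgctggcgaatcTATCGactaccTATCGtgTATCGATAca
CG2924, before the TSS: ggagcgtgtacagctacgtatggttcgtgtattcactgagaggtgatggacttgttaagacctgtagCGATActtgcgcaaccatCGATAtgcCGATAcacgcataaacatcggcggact

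The more copies of CGATA a TSS carried, the more often its gene had a bbx summit. The genes considered were the 8276 one-strand simple genes, with no protein-coding TSS on the opposite strand within 1000 bp of any of their own TSSs. A summit lay within 500 bp of a TSS at 1475 of them, or 17.8% (95% Wilson interval 17.0 to 18.7), and the lists of replicate 1 and replicate 2 alone gave 18.4% and 13.3%. Copies were counted on both strands within 100 bp of each TSS, and the TSS with the most copies stood for its gene. With 0 copies, 483 of 5260 genes had a summit (9.18%, Wilson 8.43 to 9.99). With 1 copy it was 302 of 1832 (16.5%), with 2 copies 261 of 634 (41.2%) and with 3 copies 228 of 338 (67.5%). With 4 or more it was 201 of 212 (94.8%, Wilson 90.9 to 97.1). Each replicate list alone gave the same order, from 9.75% to 92.9% in replicate 1 and from 5.34% to 91.0% in replicate 2.

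The difference between the ends held among genes with 1 TSS, and the direction held within each 25% of genes by length. Among genes with 1 TSS, 341 of 4505 with 0 copies (7.57%) and 150 of 156 with 4 or more (96.2%) had a summit. Longer genes had summits more often, from 5.94% in the shortest 25% of genes (up to 1070 bp) through 12.5% and 21.5% to 31.4% in the longest 25% (from 4426 bp). Of the shortest, 30 of 1439 genes with 0 copies (2.08%) and 70 of 207 with 2 or more (33.8%) had one. Of the longest, the counts were 267 of 1257 (21.2%) and 244 of 338 (72.2%). By the full octamer, 304 of 426 genes with a DRE at a TSS had a summit (71.4%) against 1171 of 7850 without (14.9%). Counting copies was chosen after the motif shares below had been seen.

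**Figure D1:**
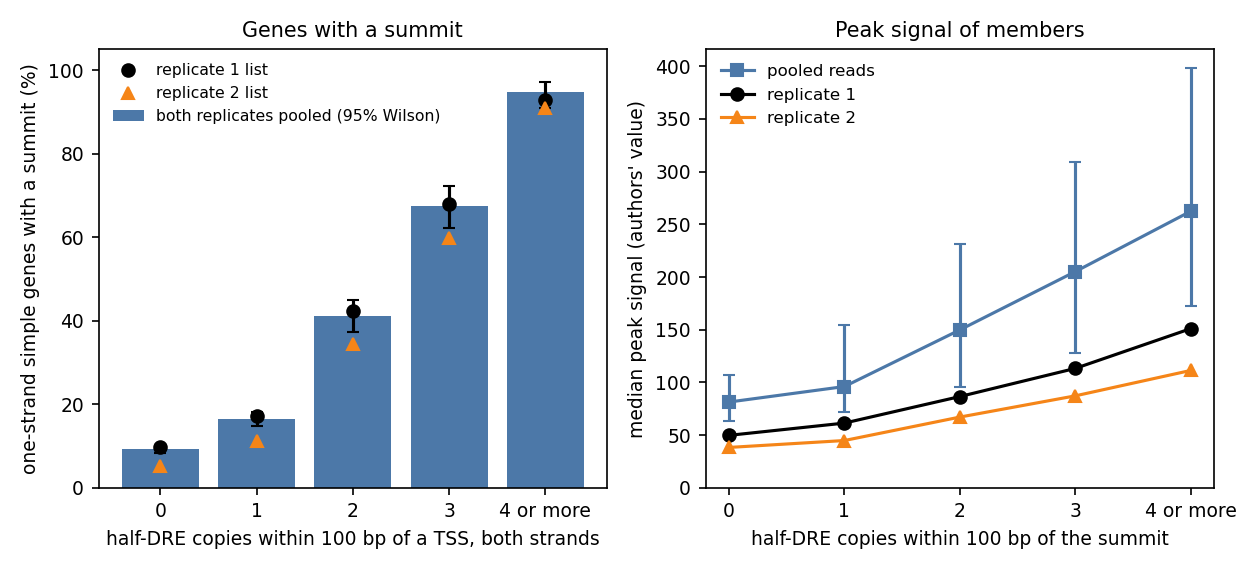
Left, the percentage of one-strand simple genes with a summit within 500 bp, by copies of the half-DRE within 100 bp of a TSS (bars, pooled conservative set with 95% Wilson intervals; circles and triangles, the lists of replicates 1 and 2). Right, the median signal of the members by copies within 100 bp of the summit in pooled reads (squares, with quartiles), replicate 1 and replicate 2. Both rise from 0 to 4 or more copies, from 9.18% to 94.8% of genes and from 81.4 to 263 in pooled signal.

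Signal at the members followed the same order. Members with 0 copies within 100 bp of the summit (806 peaks) had a median pooled signal of 81.4, with 49.8 in replicate 1 and 38.3 in replicate 2. The 346 members with 1 copy had 96.1 (61.4 and 44.9), the 334 with 2 copies 149.9 (86.6 and 67.1), and the 301 with 3 copies 205 (113 and 87.3). The 280 members with 4 or more had 263 (151 and 111). The spread within each step was wide: the upper quartile at 1 copy, 154, lay above the lower quartile at 3 copies, 128. Restricting to summits within 100 bp of the TSS left the order in place, from 89.4 at 0 copies to 277 at 4 or more. Peaks of the other promoter classes showed it too, with medians from 78.5 to 251.0 at divergent promoters and from 86.8 to 333 at multi-TSS promoters, so the order was not limited to the one-strand simple promoters.

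At 422 members, or 20.4%, a full DRE was present in the window of 100 bp to either side of the summit (Wilson 18.7 to 22.2). In windows of the same length centred on a TSS it was found at 1.56% of TSSs of one-strand simple genes without a summit and at 6.42% of all protein-coding TSSs, and 1000 bp to either side of the members it was found in 0.460%. Windows centred on the members' own TSSs gave 20.5%, so the choice of centre did not make the difference. At divergent promoter summits the share was 27.8%, at multi-TSS promoter summits 10.3% and away from protein-coding TSSs 4.26%. Members with a DRE had a median signal of 212 (121 in replicate 1 and 89.0 in replicate 2), against 99.5 (61.3 and 45.9) without. The 839 members with CGATA but no DRE were between these, with 139.9 (83.6 and 62.3). CGATA itself lay near 61.0% of member summits (62.7% of the members' own TSSs), 27.3% of TSSs of genes without a summit and 37.2% of all protein-coding TSSs.

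Copies sat just upstream of the TSS and close to the summit. The DRE nearest to the summit had a median position of -37.5 bp from the TSS, negative values being upstream in the direction of transcription, with quartiles of -62.5 and -11.5 bp. Its median distance from the summit was 21.5 bp, and 87.4% lay within 50 bp. For CGATA the median distance was 15 bp, and 85.6% lay within 50 bp. Only the copy nearest to the summit in the window of 100 bp to either side was taken, which shortens these distances by construction. By the same rule, the other motifs searched had 35.3% to 65.1% within 50 bp. Of the nearest CGATA copies, 53.7% pointed along the gene. This share includes the members with a DRE, which holds a copy on each strand and so has no orientation. The share among members with CGATA but no DRE is not given here, so orientation stays undecided.

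**Figure D2:**
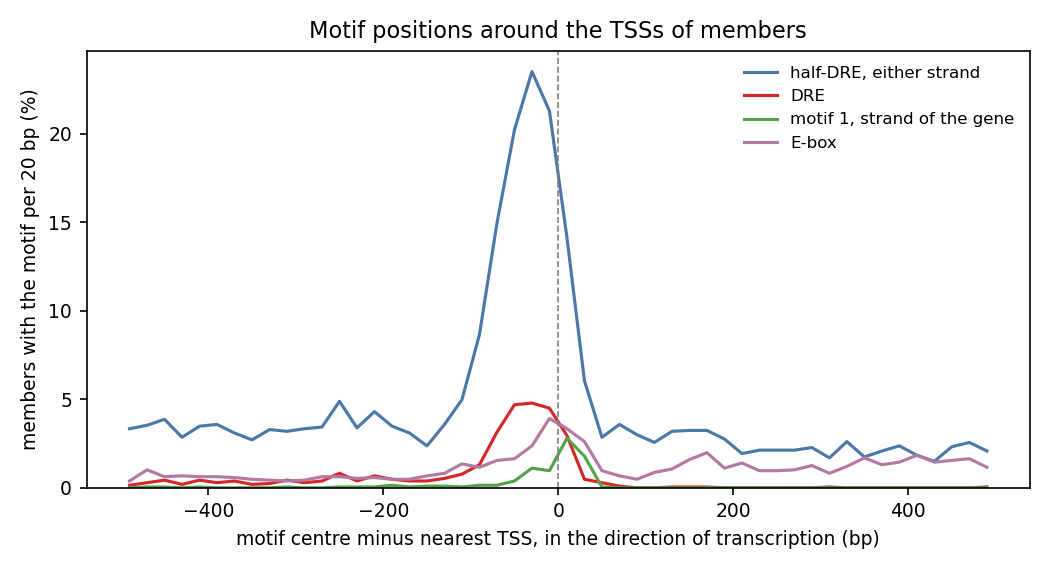
Percentage of the 2067 members with a motif centre in each 20 bp step around the nearest TSS, in the direction of transcription. The half-DRE and the DRE peak just upstream of the TSS, motif 1 on the strand of the gene just downstream, and the E-box around it.

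The other elements, searched on both strands in windows of the same length, split into 3 kinds. Motif 1 (GGTCACACT, a core promoter element bound by M1BP) was found at 8.37% of the members' TSSs and 2.13% of TSSs of genes without a summit. Its median position was -6.5 bp and 78.1% of the nearest copies pointed along the gene, but members with and without it had like signals (117 and 114). The E-box CAGCTG was found at 17.0% of the members' TSSs and 10.5% of TSSs without a summit, again with like signals (114 and 114). The letters of 2 elements of tissue-specific promoters were less frequent than at genes without a summit. TATAAA, for the TATA box, was at 20.02% of the members' TSSs and 32.1% of the others. TCAGT, for the Initiator, was at 36.8% and 48.5%. Windows 1000 bp to either side of the members held them at 18.7% and 27.5%. These matches lay anywhere in the window, and only 63 members (3.05%) had TATAAA along the gene from -40 to -20 bp. Members with TATAAA had the higher signal (126 against 110). Those with TCAGT had the lower signal (104.8 against 118). GAGAG, recognised by the GAGA factor Trl, had about the same share at both (25.2% and 24.8%), yet members with it had the lower signal, 96.0 (57.9 and 44.5) against 124 (75.5 and 55.7). It was found at 13.0% of the strongest 25% of members and 29.4% of the weakest 25%.

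Of the sequences known for HMG boxes, the SOX core ACAAT was found at 43.1% of the members' TSSs and 43.0% of TSSs without a summit, nearly the same share, and near 42.3% of member summits. Within the members it was at 53.4% of the strongest 25% and 35.4% of the weakest 25%. The TCF site CTTTGAT was at 1.95% of the members' TSSs against 3.78%, and TCAATGAA, an octamer listed for Bbx in mammals, at 6 of 1948 (0.308%) against 1.21%. Centred on the summit, they were near 1.84% and 0.532% of members. These are matches to letters in a window and say nothing of how the protein reaches DNA.

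Summits lay just upstream of the TSS. The median offset was -19 bp (quartiles -57 and 29), with -22 bp in replicate 1 and -21 bp in replicate 2, and 76.2% of summits (Wilson 74.4 to 78.03) were within 100 bp. The summits of the replicates themselves differed by a median of 21 bp, 90% of them by at most 88 bp, so offsets of single members are no finer than this. In addition, 1468 members (71.0%) had the commonest peak width, 356 bp, each with its summit at the centre of the peak. By place, 1282 summits (62.0%) were upstream of the TSS, 627 (30.3%) in a 5′ UTR, 102 (4.93%) in coding sequence, 55 (2.66%) in an intron or beyond the gene and 1 in another exon. Divergent promoters held more of their summits within 100 bp (88.8%) and multi-TSS promoters fewer (65.1%), with medians of -24 and -22 bp. The offset is taken to the nearest TSS, and a divergent summit must have TSSs on both strands within 500 bp. This raises the divergent share by construction.

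Strong and weak members differed in where they sat. In the strongest 25% the median signal was 314 (180 in replicate 1 and 137 in replicate 2), the median offset was -36 bp and 90.5% of summits were upstream. In the weakest 25% the signal was 62.2 (40.0 and 32.6), the offset was +33 bp and 38.9% were upstream. The summits of replicates 1 and 2 themselves gave medians of +4 and +7 bp at these weak members, nearer the TSS than the pooled summits, and -36 and -34 bp at the strongest 25%. CGATA was found at 93.8% of the strongest 25% and 31.1% of the weakest, and the DRE at 42.2% and 3.29%. Through the offsets, signal was highest in the 50 bp before the TSS (694 members, median 181) and in the 50 bp before those (323 members, 177). It was 99.3 in the 50 bp from the TSS onward (407 members), 55.8 more than 250 bp downstream (52 members) and 84.0 more than 250 bp upstream (107 members). Across the members, Spearman's rho between signal and distance from the TSS was -0.310, a description over peaks of shared libraries. It was -0.043 between signal and gene length.

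**Figure D3:**
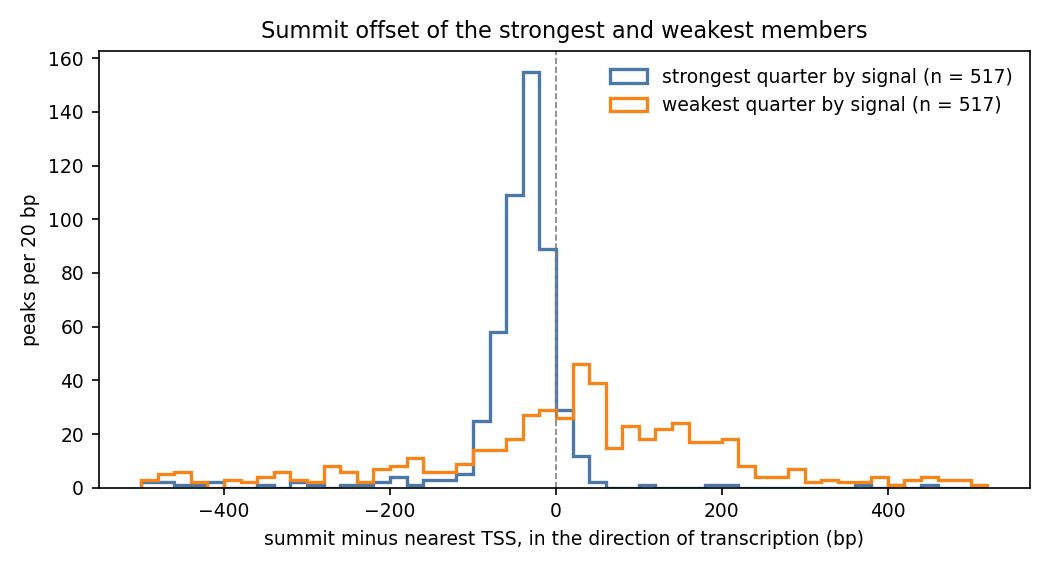
Number of member peaks per 20 bp of summit offset from the nearest TSS, in the direction of transcription, for the strongest and the weakest 25% by pooled signal (517 peaks each). The strongest form 1 narrow mode upstream of the TSS (median -36 bp), whereas the weakest spread on both sides with a median of +33 bp.

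Overlapping peaks touch the weak end. Of the members, 126 overlapped a stronger conservative peak, among them all 59 with a signal under 10. Their replicate values are largely those of the stronger peak: CG7627, with the pooled signal 2.47, had 44.7 in replicate 1 and 35.3 in replicate 2. The other 4 weakest members, at Bdbt, CG32573, nahoda and blw, had pooled signals of 2.08 to 2.43 and overlapped a stronger peak as well. Without the 126, the weakest 25% (393 peaks left) had a median offset of +24 bp (+16 and +13.5 bp by the summits of the replicates), and the order of signal by copies ran from 86.5 to 263.

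The median pooled signal of all members was 114 (quartiles 77.3 and 209; 69.8 in replicate 1 and 51.5 in replicate 2). It was 130.5 (77.0 and 61.4) at divergent promoters, 101.2 (60.4 and 45.1) at multi-TSS promoters and 79.9 (43.6 and 38.6) away from protein-coding TSSs, the same order in each replicate. The differences between classes were small beside the quartiles of the members. Of the 100 strongest conservative peaks, 59 were members. This compares with 43.5% of all conservative peaks and is near the 55.5% of those at protein-coding promoters. A value in both replicates was found for 2052 members; 91.0% differed by less than 2-fold, and 1673 were higher in replicate 1. On the log2 scale, replicate 1 exceeded replicate 2 by a median of 0.40 (SD over members 0.46), and Spearman's rho between replicates was 0.821 across these members, which were chosen by IDR for like ranks. A peak of both replicate lists overlapped 61.9% of members, 99.6% in the strongest 25% and 16.6% in the weakest. These lists are themselves cut by IDR, so a difference between strong and weak members is partly built in. Without the 126 overlapping peaks the share in the weakest was 5.85%. By a reciprocal overlap of at least 50% the shares were 77.6% in the strongest and 4.45% in the weakest.

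**Figure D4:**
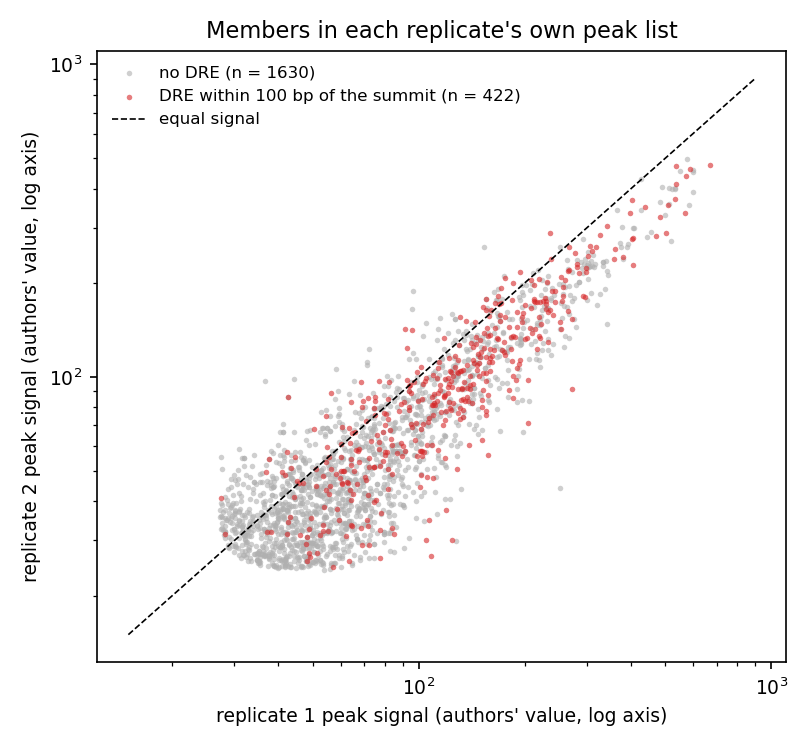
Peak signal of each member in replicate 1 (horizontal) and replicate 2 (vertical), from each sample's own ranked list, on log axes, with members that have a DRE within 100 bp of the summit in red (422) and the others in grey (1630). Most points lie below the line of equal signal, and the members with a DRE lie towards the upper end in both replicates.

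Among the members, Pym (a partner of the exon junction complex) led with the highest pooled signal, 1149, 670 in replicate 1 and 475 in replicate 2. Capr followed with 1067 (578 and 499), CG2924 with 1061 (599 and 460), jagn with 1056 (599 and 454) and Sumo with 1021 (590 and 461). The remaining 10 of the 15 strongest, down to Snx27 (an endosomal sorting nexin) with 917 (534 and 402), also lay higher in replicate 1. They were at Creld, Pcif1, Scsalpha1, RhoGAP93B, Hsp110, CG8613, the ribosomal protein gene RpS2, the cohesin gene SMC1, CG4502 and Snx27. All 15 summits were upstream, from -12 bp at jagn to -54 bp at CG4502, and each window held 2 to 6 copies of CGATA although only Pym, Sumo, Creld, Scsalpha1 and Hsp110 had a full DRE.

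A few strong members lay far from their TSS. More than 250 bp upstream, the strongest were at Rcd2 (-498 bp, signal 414), tej (-435 bp, 393), Sema1a (-356 bp, 388) and MFS18 (-301 bp, 350). More than 250 bp downstream they were at stwl (+406 bp, 286), msps (+379 bp, 276), CG31248 (+441 bp, 235) and BEAF-32 (+387 bp, 164), the last beside a stronger peak at its TSS. Some of these are also near other genes: 14 members, Sema1a and CG31248 among them, had a tRNA gene TSS within 500 bp. Their median signal was 231 (114.7 and 128) and their median offset from the protein-coding TSS -303.5 bp. Replicates disagreed most, among members over the median signal, at CG8547 (251.1 in replicate 1 and 44.2 in replicate 2), Cftr (128 and 29.8), Tsp97E (124 and 30.2) and TM9SF4 (108 and 26.7).

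Taken as groups of lists, genes for making, dividing and maintaining cells carried summits more often than the 17.8% of all one-strand simple genes. This was not particular to them, since the lists for development together gave 36 of 95 (37.9%). The 17.8% also includes 4189 genes known only by a CG number, whose share of 9.72% lowers it. In the lists for growth, which cover protein synthesis, ribosome biogenesis and chaperones, 51 of 114 genes had one (44.7%, Wilson 35.9 to 53.9; 49.1% and 37.7% in the replicate lists). The member peaks named for a list can lie at listed genes outside that count: mRpL4, Sec61beta, CycB, geminin and Su(H) have an opposite-strand TSS within 1000 bp. In the growth lists, 21 of 36 cytoplasmic ribosomal protein genes had a summit, whereas RpL10 and RpL10Aa had none. Highest were RpS2 (930, replicates 524 and 398), RpS30 (575, replicates 319 and 261) and RpS24 (469, replicates 253 and 209). Mitochondrial ribosomal protein genes gave 7 of 15, with mRpL4 (662) first, translation factors 13 of 31, with eIF3f1 (773) first, and aminoacyl-tRNA synthetases 4 of 10, with AspRS-m (278.5) first. Chaperone genes gave 5 of 20, with Hsp110 first, and ribosome biogenesis genes 1 of 2. The pyrimidine-rich TCT element that many ribosomal protein genes use (CTCTTTC was searched) lay near 6 of the 42 summits of the cytoplasmic ribosomal protein list and 3.82% of all members. CGATA was near 26 of the 42, about the 61.0% of all members.

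In the lists for cell division, 22 of 37 genes had a summit (59.5%, Wilson 43.5 to 73.7). These were 17 of 27 cell cycle and replication genes and 5 of 10 DNA repair genes, with mre11 (353) first. The highest member peaks of the cell cycle list were at the cyclin genes CycB (483, replicates 341 and 147) and CycT (341, replicates 197 and 155) and the replication licensing inhibitor geminin (406, replicates 229 and 192). CycB and geminin have an opposite-strand TSS within 1000 bp and are not among the 27. Cdk8 and CycH had no summit. The list was not limited to division, since CycT and Cdk8 are known for roles in transcription. In the lists for protein breakdown it was 20 of 39 (51.3%): 9 of 22 proteasome genes, with Rpn10 (558) first, and 11 of 17 ubiquitin and SUMO genes, with Sumo and the deubiquitinase gene Usp7 (465) first.

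The energy, membrane and RNA groups of lists also lay above the background in the pooled set, though not each list in each replicate. Energy lists gave 18 of 55 (32.7%), 15 of them among 45 oxidative phosphorylation genes, with the complex III gene UQCR-14 (589.5; 357 and 238) first, and 3 among 10 mitochondrial import genes, with Tim9b (149) first. In the membrane lists it was 21 of 61 (34.4%), with 12 of 36 traffic genes and 5 of 7 autophagy and peroxisome genes, led by Atg14 (508). V-ATPase genes gave 4 of 18, led by Vha16-1 (277). The strongest member peak of the traffic list was at Sec61beta (634), which has an opposite-strand TSS within 1000 bp and is not among the 36. For the V-ATPase list each replicate list gave only 2 of 18 (11.1%), below its background. Lists for RNA gave 13 of 32 (40.6%), of which 10 of 25 were genes of RNA polymerases and general factors, with Taf9 (309) first. For spliceosome genes it was 2 of 4, and for the nuclear pore 1 of 3 with Nup358 (693) the strongest member peak.

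Genes for proteins that bind boundaries or core promoter elements had summits at 7 of 8 genes (87.5%, Wilson 52.9 to 97.8). The strongest were row (595; 344 and 212), BEAF-32 itself (458; 272 and 217) and the insulator gene CTCF (305; 153 and 138), and Clamp had none. Polycomb and trithorax genes gave 3 of 10, with kis (502) first, and HMG-box genes 2 of 7, SoxN (104.7; 41.5 and 53.8) and Dichaete, listed as D (96.4; 51.1 and 48.4).

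Peaks at Hox and segmentation genes lay farther from the TSS than most members and seldom had CGATA. Of the 30 Hox and segmentation genes, which pattern the body axis, 13 had a summit (43.3%, Wilson 27.4 to 60.8), but the list of replicate 1 gave 7 and that of replicate 2 gave 13. Highest were Ubx (197; 116 and 62.9), odd (138; 90.1 and 39.0) and hry (117; 62.7 and 50.7), and Dfd and Kr had none. Their 13 member peaks had a median offset of -171 bp, 5 were within 100 bp of the TSS, 3 had CGATA and 0 had a DRE. Over all members the median offset was -19 bp, 61.0% had CGATA and 20.4% had a DRE. Genes of mesoderm, muscle and neurons gave 5 of 28 (17.9%), at the background, with insc (136), dpn (128) and tin (119.7) highest. The 6 peaks of this list held 0 DREs, too few peaks to set against the 20.4%. Signalling genes gave 15 of 28 (53.6%), led by Stat92E (657, replicates 393 and 266) and the ubiquitin ligase gene mib1 (388). The next member peak of this list was at Su(H) (307), the Notch pathway transcription factor. Su(H) has an opposite-strand TSS within 1000 bp and is not among the 28. Of the 23 peaks of the signalling list, 19 were within 100 bp of the TSS, with a median offset of +7 bp. CGATA was near 12 of them and a DRE near 3 (13.0%), and with so few peaks these are not far from the shares of all members. Germ line and piRNA genes gave 5 of 13, with tej (393) and tud (298) first, both more than 250 bp upstream and tud within 500 bp of tRNA gene TSSs.

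The lists grouped as tissue products also hold enzyme, protease and antimicrobial peptide genes, which need not be limited to 1 tissue. These lists seldom had a summit, at 10 of 540 genes (1.85%, Wilson 1.01 to 3.37, with 12 and 3 in the replicate lists). Of 150 odorant, taste and ionotropic receptor genes there were 0, which allows a share of up to 2%, though the list of replicate 2 alone had 1. No summit was found at 39 odorant-binding protein genes (up to 7.69%), 58 seminal fluid and accessory gland protein genes (up to 5.17%) or 15 eggshell and yolk genes (up to 20%). Cuticle protein genes gave 1 of 114, obst-B (83.0; 49.8 and 39.3), and antimicrobial peptide genes 1 of 23, AttD, whose summit lay -464 bp from the TSS and within 500 bp of tRNA gene TSSs. Serine proteases and serpins gave 3 of 45, with Spn88Ea (99.4) first, and 2 and 0 in the lists of replicates 1 and 2. Cytochrome P450 and glutathione transferase genes gave 5 of 96, with GstE12 (109.7; 72.6 and 33.4) first, and 8 and 1 in the lists of replicates 1 and 2. Of the genes known only by a CG number, 407 of 4189 had one (9.72%), below the background. The lengths of the listed genes are not given here, and the shortest one-strand simple genes (168 to 1070 bp) had a summit at only 5.94%. Expression was not measured, so inactive genes and genes that lack the protein cannot be told apart.

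**Figure D5:**
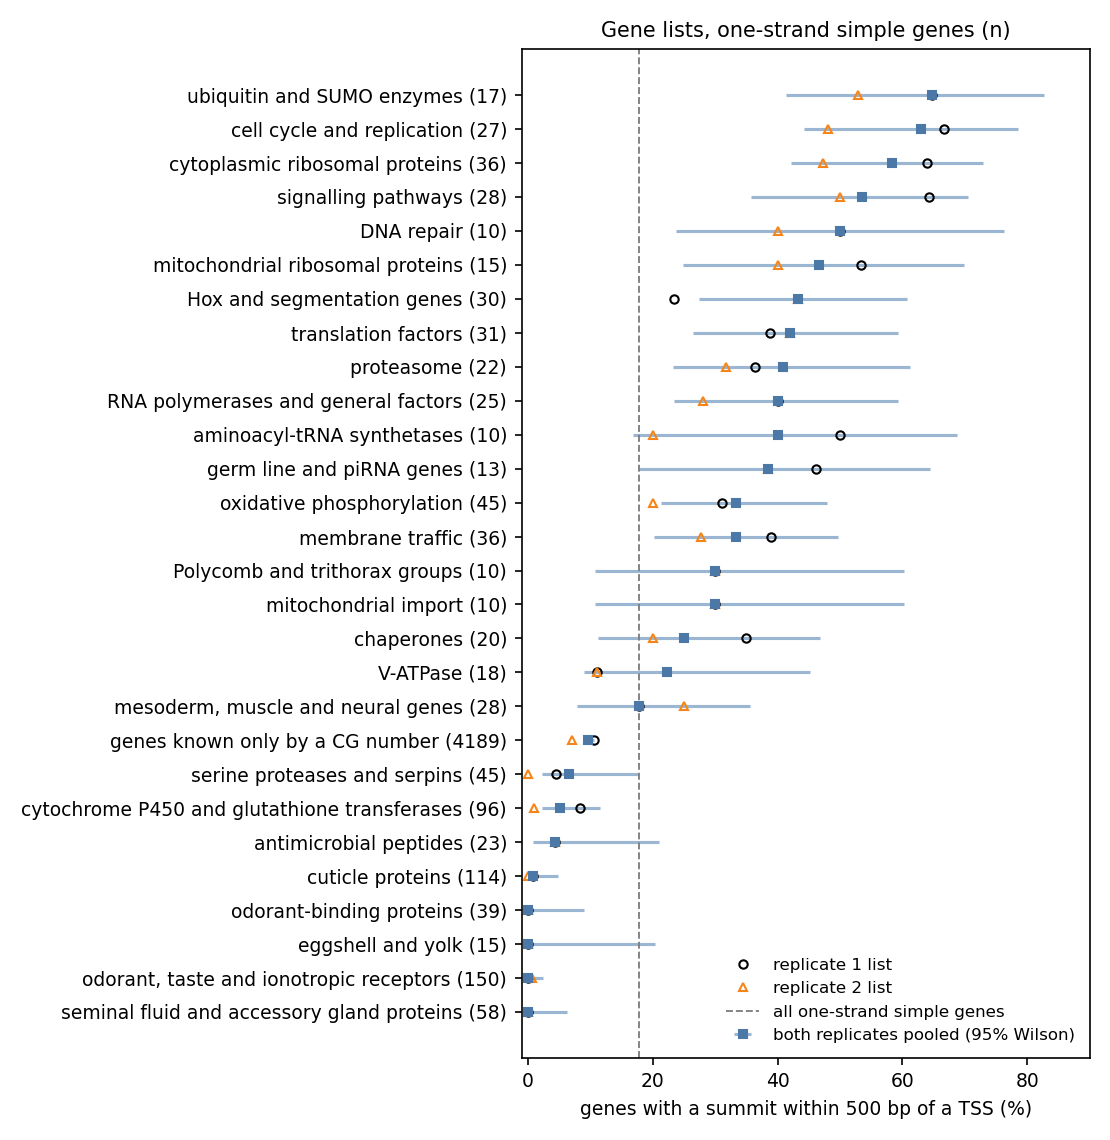
Percentage of one-strand simple genes with a summit in each list of 10 or more genes (squares, pooled set with 95% Wilson intervals; circles and triangles, replicates 1 and 2). The dashed line marks the 17.8% of all one-strand simple genes. Lists for division and synthesis lie to its right, as do those of Hox and segmentation genes and of signalling genes. Lists for tissue products lie to its left.

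Gene structure went with how often a gene had a summit and, in another order, with signal. Genes with an opposite-strand TSS within 1000 bp had a summit in 50.2% of cases and one-strand multi-TSS genes in 45.4%, against the 17.8%. The first of these classes is not limited to simple genes. In it a summit within 500 bp of both TSSs of a pair counts for both genes, which raises its share by construction. Within the one-strand simple genes, 14.97% of 6749 genes with 1 TSS, 29.8% of 1425 with 2 and 40.2% of 102 with 3 or more had one. Signal ran otherwise: the median was 121 at 1329 members of genes with 1 TSS, 103 at 668 with 2 and 117 at 70 with 3 or more. A gene with more TSSs also offers more sequence within 500 bp of one. Members whose gene had an opposite-strand TSS within 1000 bp (490 peaks) had a median offset of +2.5 bp and a signal of 107. Here the rule itself removes summits within 500 bp of both TSSs of a pair, though 238 of the 490 were upstream. With that TSS more than 5000 bp away (666 peaks) the values were -23 bp and 111, and signal had a rho of 0.036 with this distance. By chromosome, X had the highest median among the large arms, 133.8 (79.7 and 60.5), with the others from 106 to 117. On Y, 0 of 23 genes had a summit, which allows up to 13.0%.

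Peaks at the limits of the rule were weaker than the median member in 3 of 4 cases. The 40 members between 450 and 500 bp from the TSS had a median signal of 77.8, and the 30 peaks just outside, up to 550 bp, had 83.2. At the limit on span, the 39 members with 3 or more TSSs over 500 to 1000 bp had 85.8, and the 36 peaks over 1000 to 1500 bp had 131. The members belonged to 1897 genes, 1735 of them with 1 member, 154 with 2 and 8 with 3, and for 43 members the nearest TSS was shared by more than 1 gene at equal distance.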

How the data were processed

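Anti-GFP chromatin immunoprecipitation was measured in 2 biological replicates of 0 to 24 h bbx-GFP embryos, sonicated to 200 to 800 bp per the labels. Per the text files deposited with the samples, the authors called the peaks on dm6 and ranked them by how well replicates matched, using the irreproducible discovery rate (IDR). The sources used here give no aligner, caller or settings. In the authors' lists the signal is a peak's enrichment value, the score is an IDR score, and the -log10 values deposited in the ranked lists are of the IDR. Conservative peaks all had an IDR up to 0.01, and those on 7 chromosomes were used. Replicate signals are those of the strongest overlapping peak (at least 1 bp) in each sample's own ranked list, found for 2064 and 2055 members.

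Protein-coding TSSs came from the Ensembl annotation, whose coordinates are those of dm6, without transposable element genes. All peaks fitted the chromosome lengths of genome release 6. Positions are 1-based. Motif windows reached 100 bp to either side, and 13 motifs were searched on both strands. Shares have 95% Wilson intervals, and a count of 0 a limit of 3 counts, for counting error only. No test was made, since there is 1 group. Neighbouring genes can share a summit. The steps were tested on simulated summits, motifs and overlaps.

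The members, the 34 gene lists and the motifs were chosen with earlier results of these data known, and the lists were corrected for renamed genes and wrong name matches after the files had been read. Genes named are those nearest to the 15 strongest and 5 weakest members, up to 3 strongest of each list, the 4 strongest more than 250 bp upstream and downstream, the 4 with the largest replicate ratio over the median signal, and the first 2 without a summit of a list in alphabetical order. Alternatives were another peak set, IDR limits of 0.001 and 0.05, TSS distances of 200 and 1000 bp, merged overlaps, 2 other definitions of a simple gene, TSSs of all genes, each replicate alone, motif windows of 50 and 250 bp and a reciprocal overlap of 50%. The software was pandas 2.3.3, NumPy 2.4.6, Matplotlib 3.10.9 and SciPy 1.17.1 under Python 3.11.15.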

Additional observations from a re-analysis of the deposited data

How the results depend on the processing

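No paired analysis was possible because both samples belong to 1 group. Of the 136 values recomputed for the main results, 74 stayed within the spread between the replicate lists, or within 1.5 times for counts, 62 moved and 0 changed sign. Where a value moved, the cause was not tested, apart from what each setting changes by construction. The number of members was 1298 at an IDR of at most 0.001 and 1329 with exactly 1 TSS position. As a share of all peaks, members were 41.8% in the other thresholded set, 47.2% and 37.01% at IDR limits of 0.001 and 0.05, 50.1% and 38.1% at TSS distances of 200 and 1000 bp, 28.0% with exactly 1 TSS position, 42.02% with fewer than 3 TSS positions, 41.5% with TSSs of all genes, and 43.3 to 44.8% in the replicate lists. The median offset was -26 and -12.5 bp at IDR limits of 0.001 and 0.05, and -27 to -20 bp in the replicate lists. The share within 100 bp was 84.1% and 70.6% at those limits, 80.4% with overlaps merged, 86.8% and 68.9% at distances of 200 and 1000 bp, 78.1% with exactly 1 TSS position, and 78.8 to 80.5% in the replicate lists.

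The median signal was 99.9 in the other set, 172 and 91.8 at IDR limits of 0.001 and 0.05, 122 with overlaps merged and 122 at 200 bp, 108 at 1000 bp, 121 with exactly 1 TSS position, 114 with TSSs of all genes, and 67.6 to 68.6 in the replicate lists, whose signal may be on another scale. Members minus divergent promoters was -20.7 at an IDR of at most 0.05, -22.4 at 200 bp, -9.62 with exactly 1 TSS position and -9.38 to -5.73 in the replicate lists. Members minus multi-TSS promoters was 27.5 and 7.72 at the IDR limits, 17.3 with overlaps merged, 16.05 and 9.61 at 200 and 1000 bp, 18.7 with exactly 1 TSS position and 8.03 to 10.1 in the replicate lists. The share of one-strand simple genes with a summit was 11.8% and 22.4% at the IDR limits and 13.3 to 18.4% in the replicate lists. The share of members with a DRE was 28.8% at an IDR of at most 0.001 and 21.4 to 27.0% in the replicate lists. Signal with minus without a DRE was 75.1 at an IDR of at most 0.001 and 35.2 to 57.8 in the replicate lists. Signal at 1 TSS minus 2 or more was 11.2 in the other set, 10.6 at an IDR of at most 0.05, 16.5 with overlaps merged, 15.7 and 16.4 at 200 and 1000 bp, 19.2 with TSSs of all genes and 6.23 to 7.48 in the replicate lists; exactly 1 TSS position gives no value for it. Members overlapping both replicate lists were 48.9% by the reciprocal overlap.

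Of the 34 lists, 25 lay above all one-strand simple genes, and 9 of the 34 changed side in 16 of 374 recomputed values. In percentage points, aminoacyl-tRNA synthetases and mitochondrial import were at -0.679, chaperones at -2.47 and Polycomb and trithorax groups at -14.97 with exactly 1 TSS position. Nuclear pore and ribosome biogenesis were at -18.5 at 1000 bp. V-ATPase was at -0.706 and -0.168 at IDR limits of 0.001 and 0.05, at -11.8 at 1000 bp and at -7.28 to -2.18 in the replicate lists. HMG-box genes were at -4.10 to 0.994 in the replicate lists. Mesoderm, muscle and neural genes were at -2.83 in the other set, -1.10 at an IDR of at most 0.001, -1.02 at 200 bp and -0.533 to 11.7 in the replicate lists. Unknown read totals, the unknown signal scale and the 126 overlapping peaks limit all of these values.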
